A study of Rattus norvegicus with 24 samples.

Results

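The genes described here are 9 epithelial genes of the rat thyroid: Defb1, Tmem213, Gprc5a, Igsf8, Krt19, Lamb3, Cldn3, Ezr and C13h1orf116. They were picked from 14217 genes with a single symbol on the array because their signal had been seen to be lower with an iodine-deficient diet or with perchlorate, so that lower signal in those groups is how they were chosen and not a result. Each of the 9 was measured by 1 probe set, a group of short probes for 1 transcript, and no second probe set carried the same single symbol. All 9 passed the filter on dim probe sets, which was set on the mean of all 24 arrays and left 18625 of 31042 probe sets for testing. Of their 72 group means 7 lay below the filter value of 6.19 on the log2 scale, all in treated groups, and these belonged to Defb1, Tmem213 and Lamb3, the last in all 3 treated groups of day 14. Detection above background was not measured.

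The thyroid follicle is a closed sac of epithelial cells around a store of thyroglobulin, and its cells need a tight lateral seal and a distinct apical surface to keep that store apart from the blood. Most of the genes encode known parts or products of epithelial cells, and which cells of the gland gave their signal was not measured. Defb1 encodes a secreted antimicrobial peptide, a beta-defensin. Tmem213 and Igsf8 encode membrane proteins, and Gprc5a an orphan receptor of the G protein-coupled class induced by retinoic acid. Krt19 encodes a keratin of simple epithelia, Lamb3 a chain of the laminin that anchors epithelia to the basement membrane, Cldn3 a claudin of tight junctions, and Ezr the protein ezrin, which ties the membrane of microvilli to actin.

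Thyroid RNA came from adult male Sprague-Dawley rats in 8 groups of 3 arrays each. Controls had normal diet and water, and the other groups had perchlorate in the water, the iodine-deficient diet, or both, each sampled at day 1 and at day 14. The diet was fed for the whole stay of 2 months plus 1 or 14 days, whereas perchlorate, 95 mg per liter of water as its potassium salt, was given only for the last 1 or 14 days. The study asked how gene expression changed with each. Perchlorate competes with iodide for the sodium iodide symporter and so blocks iodide uptake, while the diet limits its supply. No genotype or age beyond "adult" is given, and the labels do not say that each sample is a separate animal, so p-values rest on a spread between samples that could be technical in part.

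The defining markers of thyroid follicular cells were present: 8 of 9 had a probe set and all 8 passed the filter. Slc5a5, the sodium iodide symporter, was called higher by limma in every treated group but perchlorate at day 1. The differences were 1.01 to 1.70 on the log2 scale (adjusted p up to 0.0269). With perchlorate at day 1 it stood at 1.07, with all arrays above the controls, but was not called (adjusted p = 0.156). The hormone gene of the parathyroid and the peptides of thyroid C cells were also bright, so the glands were not follicular tissue alone. A pair of arrays stood apart from the rest. Perchlorate day 1 replicate 18 differed from the other arrays by a median of 0.675 over probe sets and control day 1 replicate 22 by 0.287, against 0.130 to 0.211 for the others, and the day 1 differences are given with and without them.

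RefSeq promoter windows of assembly GRCr8, running from 250 bases before to 50 after the gene's start, were on hand for 6 of the 9 genes: Tmem213, Lamb3, C13h1orf116, Cldn3, Ezr and Igsf8. The 4 shown belong to the genes of this set that were called lower with perchlorate at day 14. Each is written 5′ to 3′ in lower case, and capitals mark a match to one of 4 motifs searched on both strands.
Tmem213 (chr4:67791760-67792059, + strand): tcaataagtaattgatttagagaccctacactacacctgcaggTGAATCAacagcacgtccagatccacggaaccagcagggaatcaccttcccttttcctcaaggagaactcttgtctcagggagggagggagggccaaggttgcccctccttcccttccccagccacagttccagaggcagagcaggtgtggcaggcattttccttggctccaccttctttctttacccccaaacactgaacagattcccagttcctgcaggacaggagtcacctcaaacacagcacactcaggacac
Lamb3 (chr13:107362303-107362602, + strand): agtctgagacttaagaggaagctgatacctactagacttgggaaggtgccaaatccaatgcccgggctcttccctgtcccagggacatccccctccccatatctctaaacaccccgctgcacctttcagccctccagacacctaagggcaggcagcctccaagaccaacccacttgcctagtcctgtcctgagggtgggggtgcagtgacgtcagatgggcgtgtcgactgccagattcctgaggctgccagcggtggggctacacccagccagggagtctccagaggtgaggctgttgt
C13h1orf116 (chr13:44740632-44740931, + strand): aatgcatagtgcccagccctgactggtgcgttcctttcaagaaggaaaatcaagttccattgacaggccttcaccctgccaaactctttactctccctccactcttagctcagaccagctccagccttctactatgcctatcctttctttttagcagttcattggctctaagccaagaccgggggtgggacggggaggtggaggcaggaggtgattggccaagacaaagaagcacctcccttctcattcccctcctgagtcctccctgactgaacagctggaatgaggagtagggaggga
Ezr (chr1:49416524-49416823, - strand): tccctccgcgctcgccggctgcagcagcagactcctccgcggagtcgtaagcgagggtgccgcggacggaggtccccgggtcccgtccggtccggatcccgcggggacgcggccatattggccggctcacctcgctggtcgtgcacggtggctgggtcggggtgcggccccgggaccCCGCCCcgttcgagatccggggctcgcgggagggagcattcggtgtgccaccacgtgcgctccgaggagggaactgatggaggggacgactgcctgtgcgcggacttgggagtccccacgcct
The capitals in Tmem213 match TGANTCA, the AP-1 motif, at bases 44 to 50, and were its only match. Those in Ezr match GGGCGG, the GC box, read on the other strand at bases 178 to 183, and Cldn3 held another at bases 235 to 240. Across 33469 promoters of the same length the AP-1 motif occurred in 7.33% and the GC box in 33.1%, against 1 and 2 of the 6 genes. Neither the grainyhead-like motif AACNNGTT, found in 4.23% of promoters, nor the nuclear receptor half-site AGGTCA, found in 16.2%, occurred in any of the 6 windows. These matches describe letters in short windows, and no binding was measured. The base composition differed widely, with 73.3% G and C in Ezr and 49.7% in Igsf8, against a median of 51.7% over all promoters.

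The 9 genes split into 3 patterns at day 14. Defb1 was low wherever perchlorate was given and close to control with the diet alone. Tmem213 was lowest with perchlorate alone and nearer to control in the group given both. The other 7 were lower with diet, with perchlorate and with both. For 5 of them, Lamb3, Krt19, Gprc5a, Ezr and Igsf8, the treated groups lay within 0.28 of each other on the log2 scale. Those of Lamb3 had means below the filter value of 6.19, and signal above background was not measured. Values are log2(intensity + 16) after quantile normalisation, differences are log2 differences between group means from limma with their standard error (SE), and the lowest value the scale allows is 4. Lower signal in a gland extract can mean fewer cells of a type or less RNA per cell, and these cannot be told apart here.

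**Figure D1:**
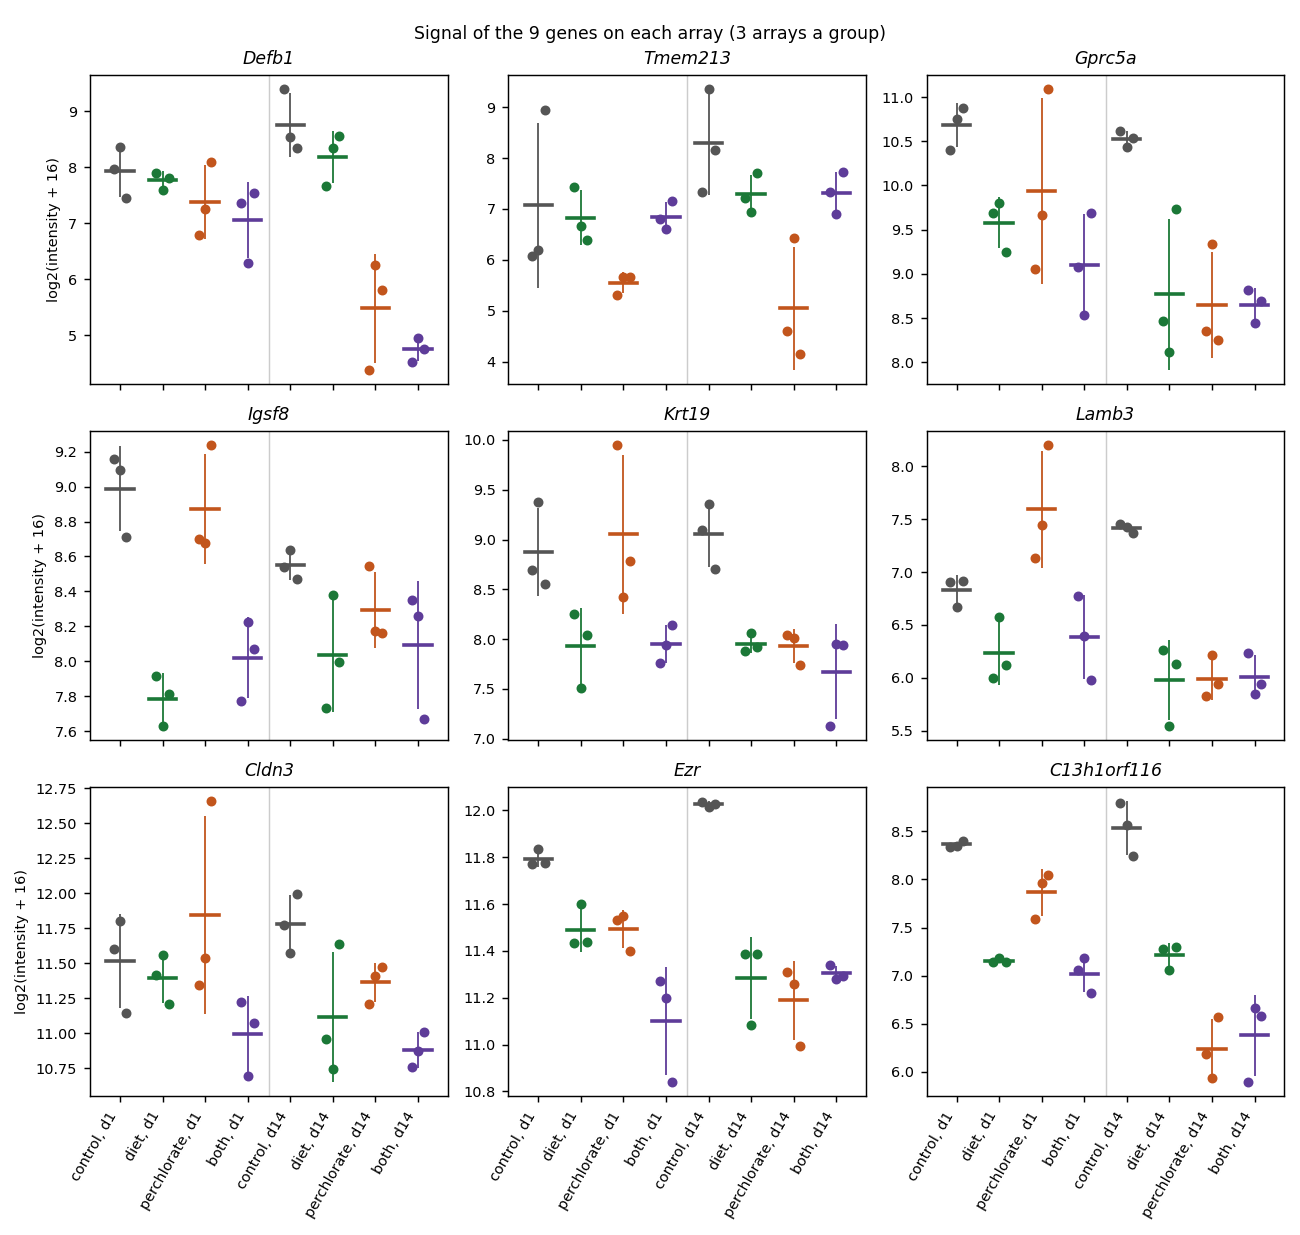
Signal of each of the 9 genes, as log2(intensity + 16), on all 24 arrays by group (d1, day 1; d14, day 14; both, diet and perchlorate). Points are arrays, thick bars group means and thin bars 1 SD over 3 arrays; each panel has its own scale. Defb1 drops to means of 5.48 and 4.75 in the day 14 groups with perchlorate, Tmem213 to 5.05 with perchlorate alone, and Ezr lies below its control arrays in every treated group.

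Because these differences from control chose the genes, the counts that follow describe them and are not tests. With both agents at day 14, 7 of the 9 were called lower at an adjusted p under 0.05, where 2.75% of all probe sets were, and the arrays of 8 lay wholly below the controls, against 20.7%. With perchlorate at day 14, 6 were called lower (0.671% of all) and 8 did not overlap the controls (13.4%). With the diet at day 14, 3 were called lower (0.0268%) and 6 did not overlap (11.2%). The median of the 9 differences was -1.38 with both, -1.43 with perchlorate and -0.998 with the diet, while the median of all probe sets was -0.064, -0.043 and -0.022. All 9 differences were below 0 in each of these 3 comparisons, which share their 3 control arrays.

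At day 1 the differences were smaller and those of perchlorate were mixed. With the diet, 2 genes were called lower, C13h1orf116 and Igsf8 (0.0107% of all probe sets), and the arrays of 6 did not overlap (6.54%). With both, 3 were called lower, these and Ezr (0.156%), and 5 did not overlap (9.76%). With perchlorate alone 0 of the 9 and 0.00% of all probe sets were called by limma, although 1888 probe sets had an unadjusted p under 0.05. There, 3 genes lay wholly below the controls (4.21%) and Lamb3 wholly above (2.92%). The medians of the 9 were -0.60 with the diet, -0.30 with perchlorate and -0.86 with both, beside 0.0012, -0.016 and -0.0067 over all probe sets.

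Some of these counts rest on single arrays. The 2 calls with the diet at day 1 went to 0 without diet day 1 replicate 8, 9 or 12 or control day 1 replicate 21 or 22, and to 1 without control replicate 24. The 3 calls with both at day 1 went to 1 without replicate 6 of that group. The Igsf8 call among them was also lost without replicate 2 or 3 of that group or control day 1 replicate 21 or 22. The 3 calls with the diet at day 14 went to 0 without diet replicate 33 and to 1 without control day 14 replicate 44 or 47. The Lamb3 call among them was also lost without control day 14 replicate 43. The 6 calls with perchlorate at day 14 became 5 or 6, and the 7 with both became 5 or 6, whichever array of the groups compared was left out.

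The 2 arrays that stood apart both belong to day 1, and leaving them out changed some differences of that day. With the diet, Krt19 went from -0.94 to -0.69, Tmem213 from -0.24 to -0.68 and Lamb3 from -0.60 to -0.68, and Cldn3 and Defb1, both below 0 with all arrays, stood at 0.02 and 0.06. The other 4 were at -1.22 (C13h1orf116), -1.15 (Igsf8), -1.06 (Gprc5a) and -0.28 (Ezr) without them. With both agents, Krt19 went from -0.93 to -0.68, Tmem213 from -0.22 to -0.66, Defb1 from -0.86 to -0.65 and Cldn3 from -0.52 to -0.37. The rest stood at -1.54 (Gprc5a), -1.35 (C13h1orf116), -0.91 (Igsf8), -0.67 (Ezr) and -0.53 (Lamb3). With perchlorate alone, C13h1orf116, Igsf8 and Ezr were at -0.60, -0.25 and -0.23 without the pair and Gprc5a at -1.28. The remaining perchlorate values are given gene by gene.

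**Figure D2:**
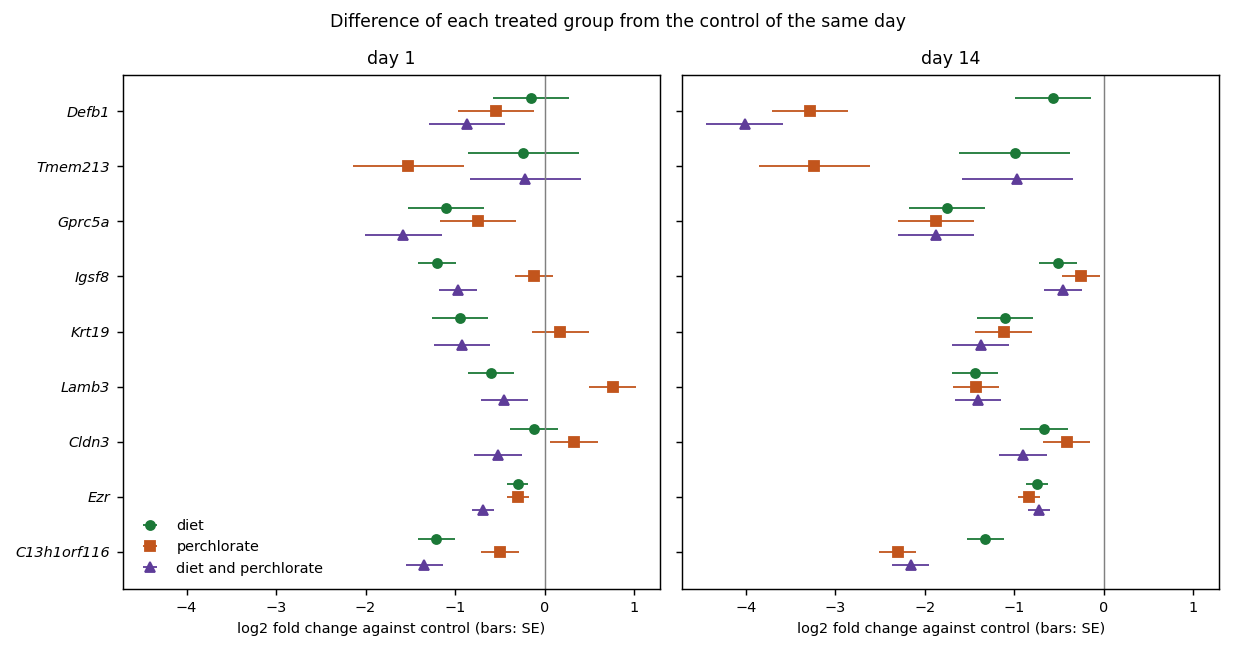
Log2 difference of each treated group from the control of the same day, from limma, for the 9 genes; bars are SE, symbols mark the diet, perchlorate and both. At day 14 every point lies left of 0 and Defb1 reaches -4.01 with both agents; at day 1 Lamb3, Krt19 and Cldn3 lie right of 0 with perchlorate alone.

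Defb1, the defensin, showed the deepest drop of the 9. At day 14 its control arrays read 8.34, 8.54 and 9.40 (8.76 ± 0.57, SD, n = 3), and those of the diet 7.67, 8.35 and 8.56 (8.19 ± 0.46). With perchlorate they read 4.39, 5.80 and 6.25 (5.48 ± 0.97), and with both 4.53, 4.76 and 4.95 (4.75 ± 0.21). The order was thus both, perchlorate, diet and control. Arrays overlapped between the lower neighbours and between diet and control, and did not overlap between perchlorate and diet. The difference from control was -3.28 (SE 0.43, 9.71-fold lower) with perchlorate, -4.01 (16.1-fold lower) with both and -0.57 (SE 0.43) with the diet. The reading of 4.39 came from a deposited intensity of 5.56, close to the bottom of the scale, so the size of these folds depends on the pseudocount. Over the alternatives the difference ran from -4.09 to -2.33 with perchlorate and from -5.18 to -2.69 with both. Added to the diet, perchlorate took Defb1 down by a further log2 difference of -3.45, the only 1 of the 9 called in that comparison (0.0805% of all probe sets were called lower).

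At day 1 Defb1 stood in the same order with narrow steps: 7.06 ± 0.68 with both, 7.38 ± 0.66 with perchlorate, 7.77 ± 0.16 with the diet and 7.93 ± 0.45 in controls. Arrays of neighbouring groups in this order overlapped. With perchlorate added to the diet the difference was -0.71, without overlap. It was not called by limma, and 8.05% of all probe sets were wholly lower in that comparison. The perchlorate difference was -0.54 (SE 0.43) with all arrays, -0.90 without perchlorate replicate 18, and -0.68 without it and control replicate 22. From day 1 to day 14 that difference moved by -2.74 (SE 0.60).

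Tmem213, a small membrane protein of little known function, was low with perchlorate alone. At day 14 its perchlorate arrays read 4.14, 4.59 and 6.42 (5.05 ± 1.21), all below the controls at 7.34, 8.16 and 9.37 (8.29 ± 1.02). The arrays given both read 6.90, 7.34 and 7.73 (7.32 ± 0.42), and those on the diet 6.95, 7.22 and 7.71 (7.29 ± 0.39). Its groups on the diet therefore sat together, with or without perchlorate, and their arrays overlapped those of the controls. The difference from control was -3.24 (SE 0.62, 9.43-fold lower) with perchlorate, -0.998 with the diet (1.997-fold lower) and -0.97 with both (1.96-fold lower). The perchlorate readings of 4.14 and 4.59 came from deposited intensities of 1.79 and 9.27, at the bottom of the scale, so the size of the fold depends on the pseudocount, and over the alternatives the difference ran from -4.63 to -2.10. The group given both stood above that given perchlorate alone by a log2 difference of 2.27, with no overlap. This difference was not called by limma, and 5.9% of all probe sets were wholly higher in that comparison.

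At day 1 the control arrays of Tmem213 spread widely. The perchlorate arrays read 5.31, 5.66 and 5.67 (5.55 ± 0.21), below every other array. Controls read 6.08, 6.19 and 8.94 (7.07 ± 1.62), the last being replicate 24. The perchlorate difference of -1.52 (2.87-fold lower) became -0.58 without control replicate 24 and -2.02 without perchlorate replicate 18 and control replicate 22. Diet and both stood at 6.83 ± 0.54 and 6.85 ± 0.28, inside the control range. Their differences from control, -0.24 and -0.22, became 0.70 and 0.72 without control replicate 24, so their sign rests on that array.

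Gprc5a, the orphan receptor, was lower to a like degree in every day 14 group. Its control arrays ran from 10.4 to 10.6 (10.5 ± 0.09), those with the diet read 8.11, 8.46 and 9.73, with perchlorate 8.26, 8.35 and 9.34, and with both 8.45, 8.69 and 8.82. No treated array reached a control array. The differences were -1.76 with the diet (3.38-fold lower), -1.88 with perchlorate (3.68-fold lower) and -1.87 with both (3.66-fold lower), each with SE 0.43. At day 1 they were -1.10, -0.74 and -1.58. The perchlorate group spread from 9.06 to 11.1, where the highest was replicate 18, and without that array its difference was -1.32.

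Igsf8, an immunoglobulin-superfamily partner of tetraspanins such as Cd9 and Cd81, was lowest at day 1 and on the diet. The diet arrays of that day read 7.63, 7.81 and 7.92 (7.79 ± 0.15), below controls at 8.71, 9.10 and 9.16 (8.99 ± 0.24). That was a difference of -1.20 (SE 0.21, 2.30-fold lower), with -0.97 for both and -0.12 for perchlorate. At day 14 the diet difference was -0.51, that of perchlorate -0.26 and that of both -0.46, and the perchlorate arrays overlapped the controls. The control mean was itself lower at day 14 (8.55 ± 0.08).

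Krt19 and Lamb3, the keratin and the laminin chain, gave nearly the same day 14 level in all 3 treated groups. Krt19 ran from 8.71 to 9.35 in controls (9.05 ± 0.32) and from 7.13 to 8.06 over the 9 treated arrays, with differences of -1.10 (diet), -1.12 (perchlorate) and -1.38 (both), each with SE 0.31. Lamb3 read 7.37, 7.43 and 7.45 in controls (7.42 ± 0.04). It read 5.54, 6.13 and 6.26 with the diet, 5.82, 5.94 and 6.21 with perchlorate, and 5.85, 5.94 and 6.24 with both. All 9 treated arrays lay over 1 unit below the lowest control, at differences of -1.44, -1.43 and -1.41 (SE 0.26), or 2.66- to 2.71-fold lower. The treated means of 5.98, 5.99 and 6.01 lay below the filter value of 6.19 for dim probe sets. Whether they stood above background was not tested, so the shared level and the folds are uncertain.

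At day 1 the arrays of this pair did not share a level, although the direct comparison of diet and perchlorate at that day called neither gene. Lamb3 read 6.001, 6.118 and 6.577 with the diet, under its controls at 6.67, 6.91 and 6.92. With perchlorate it read 7.13, 7.45 and 8.20, all above them, a difference of 0.76 (SE 0.26). It was 0.45 without perchlorate replicate 18, and 0.37 without that array and control replicate 22. Krt19 was 8.88 ± 0.44 in controls, 7.93 ± 0.38 with the diet, 7.95 ± 0.19 with both and 9.05 ± 0.80 with perchlorate, where 8.43, 8.78 and 9.95 spanned the control arrays. Its perchlorate difference of 0.18 became 0.56 without the same 2 arrays. In the same group the summed intensity of 9 squamous epithelium markers ran from 365 to 1046, overlapping the 245 to 424 of the controls, and 0 of the 3 tested were called by limma (1 had an unadjusted p under 0.05). Lymphocyte markers there ran from 797 to 10088, against 835 to 1158, with 0 of 4 called (3 at an unadjusted p under 0.05). The part of either cell type in the Lamb3 and Krt19 values was not tested.

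Cldn3 and Ezr, the claudin and ezrin, gave modest folds, and the day 14 controls of Ezr lay very close together after normalisation. Cldn3 ran from 11.58 to 11.99 in day 14 controls (11.78 ± 0.21), and read 10.76, 10.88 and 11.01 with both, a difference of -0.90 (SE 0.27, 1.86-fold lower). The perchlorate arrays, 11.21 to 11.48, also lay below the controls, at -0.42, while the diet arrays, 10.75 to 11.64, overlapped them at -0.67. Ezr read 12.02, 12.03 and 12.04 on the day 14 control arrays (12.03 ± 0.01). It was 11.28 ± 0.18 with the diet, 11.19 ± 0.17 with perchlorate and 11.31 ± 0.03 with both. The differences from control were -0.72 to -0.84 (SE 0.12, 1.65- to 1.79-fold lower). The control SD of 0.01 is a poor measure of their size. It was below the SD of each treated group, and before normalisation the control intensities, 4142, 4107 and 3658, lay relatively further apart.

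At day 1 Ezr was again below every control array in all 3 groups, at -0.30 with either agent alone and -0.69 with both (SE 0.12). Both agents together thus gave the lowest level at day 1, while at day 14 the group given both lay 0.12 above that given perchlorate alone, with overlapping arrays. Cldn3 at day 1 overlapped its controls in each group. Its perchlorate difference of 0.33 was -0.07 without replicate 18, which read 12.7, and 0.07 without that array and control replicate 22.

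C13h1orf116, known in human as a specifically androgen-regulated gene, was lower in all 6 treated groups without overlap. Its day 1 controls read 8.34, 8.35 and 8.40 and the diet arrays 7.14, 7.14 and 7.19, a difference of -1.21 (SE 0.21, 2.31-fold lower). At day 14 controls read 8.24, 8.57 and 8.79 and the diet arrays 7.06, 7.28 and 7.29, with a difference of -1.32. The perchlorate difference was -0.50 at day 1 and -2.30 at day 14, when its arrays read 5.94, 6.19 and 6.57 (4.93-fold lower). With both at day 14 they read 5.89, 6.58 and 6.66, at -2.16. The diet level was therefore alike at both days and the perchlorate level was not.

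The diet was also set directly against perchlorate. This comparison uses the same treated arrays that helped to choose the genes, and a gene picked for a low level under 1 agent tends toward a gap between the agents, so its p-values are not independent evidence. At day 14 Defb1 was higher with the diet by 2.71 (SE 0.43, 95% interval 1.83 to 3.60, 6.55-fold), without any overlap of the 3 and 3 arrays and at an adjusted p of 0.0467 from limma over 18625 probe sets. It was the only probe set called, 0.00537% of those tested, while 693 had an unadjusted p under 0.05. The call was lost in 9 of 15 alternatives. Without diet replicate 32, 33 or 34 the adjusted p of Defb1 was 0.0659, 0.165 or 0.408, and without perchlorate replicate 39 or 42 it was 0.568 or 0.138; without perchlorate replicate 40 it was 0.0187. The direction held throughout, with differences of 1.83 to 3.499.

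Of the other 8, none was called at day 14, but 2 more did not overlap. Tmem213 was higher with the diet by 2.24 (interval 0.95 to 3.53, adjusted p = 0.640) and C13h1orf116 by 0.98 (0.54 to 1.41, adjusted p = 0.474). Over all probe sets 7.19% had diet arrays wholly above the perchlorate arrays. The remaining 6 genes had intervals across 0: Ezr -0.16 to 0.35, Lamb3 -0.55 to 0.52, Krt19 -0.63 to 0.67, Gprc5a -0.76 to 1.01, Cldn3 -0.80 to 0.30 and Igsf8 -0.70 to 0.18.

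At day 1 the same comparison called 0 of the 9 (4 at an unadjusted p under 0.05) and 2 of 18625 probe sets (0.0107%). Before adjustment, p was under 0.05 for 2987. Of the larger differences 4 were lower on the diet: Lamb3 -1.36 (interval -1.90 to -0.82, adjusted p = 0.0584), Krt19 -1.12 (adjusted p = 0.166), Igsf8 -1.09 (adjusted p = 0.0757) and C13h1orf116 -0.71 (adjusted p = 0.177). None of these 4 overlapped, where 5.28% of all probe sets had diet arrays wholly below. Leaving out perchlorate replicate 15 brought Lamb3 to 0.0321 and Igsf8 to 0.0417, and leaving out replicate 16 brought Lamb3, Igsf8 and Krt19 to 0.0195, 0.0177 and 0.0308. Without replicate 18, the array that stood apart, the differences were -1.06, -0.90 and -1.26 for Lamb3, Igsf8 and Krt19, and 0 of the 9 were called. Tmem213 was higher on the diet by 1.29 (interval -0.0036 to 2.57, adjusted p = 0.313).

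**Figure D3:**
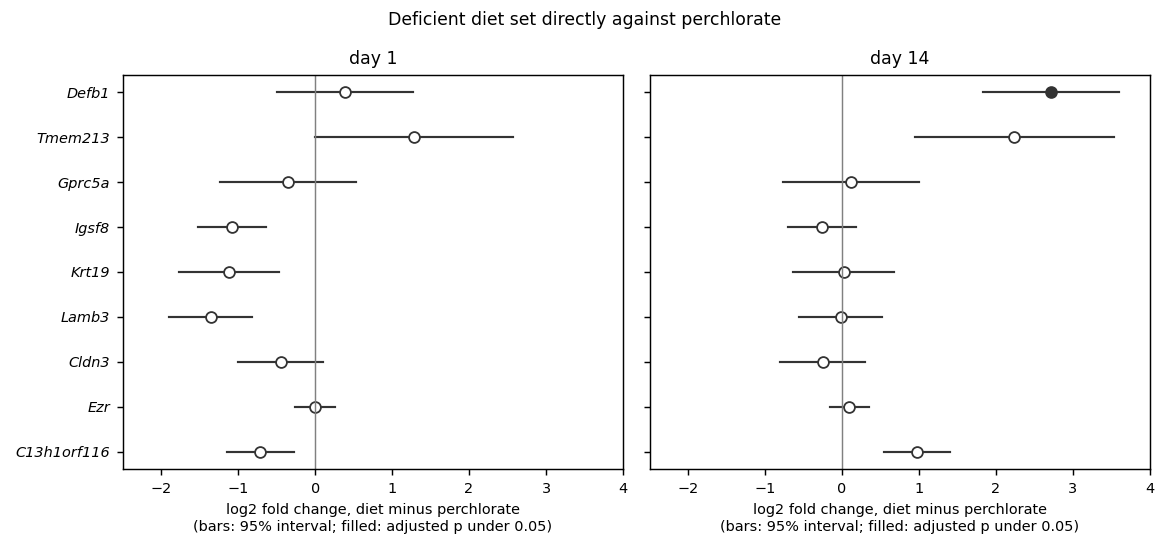
Log2 difference of the diet group from the perchlorate group at day 1 and day 14 for the 9 genes, from limma; bars are 95% intervals and a filled point has an adjusted p under 0.05. Only Defb1 at day 14 is filled, at 2.71; Lamb3, Krt19, Igsf8 and C13h1orf116 lie left of 0 at day 1.

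Untreated rats gave a measure of drift with time. The control arrays entered the differences that chose the genes, so for these 9 the measure is not independent of that choice. Between control day 1 and control day 14 none of the 9, and none of 18625 probe sets, was called by limma (0.00%; 765 at an unadjusted p under 0.05). Lamb3 (0.59, interval 0.05 to 1.12) and Ezr (0.23, -0.02 to 0.49) were higher at day 14 without overlap, and Igsf8 (-0.44, -0.88 to 0.0017) lower. Over all probe sets 5.04% were wholly higher and 4.36% wholly lower. Tmem213 and Defb1 had the widest intervals, -0.07 to 2.51 and -0.05 to 1.72.

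Genes of the same roles as the 9 were tested against control in the same fit. Of 111 genes tested in 9 lists, which cover junctions, keratins, the laminin receptor, ezrin's partners, defence, tetraspanins, epithelial transcription factors and mesenchymal genes, none was called by limma at day 1 against control, where 8, 13 and 11 had an unadjusted p under 0.05 with diet, perchlorate and both. At day 14, 1 rose with the diet; 4 rose and 3 fell with perchlorate; 17 rose and 7 fell with both. Over all probe sets 0.193% rose with the diet, 2.90% rose and 0.671% fell with perchlorate, and 6.10% rose and 2.75% fell with both. The median over the 111 was 0.013 with both, beside -0.064 over all probe sets.

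Among junction genes, Ppl, which encodes the desmosomal linker periplakin, fell by 1.08 with both (SE 0.18, adjusted p = 0.000811) and by 0.83 with perchlorate (adjusted p = 0.0129). Its relative Evpl fell by 0.97 with perchlorate (adjusted p = 0.0468), and the plakophilin Pkp2 fell by 0.82 with both. Of the tight junction list, Cldn8 fell by 0.62 and the polarity protein gene Patj by 0.65 with both, while Jam2, an adhesion molecule also made by endothelium, rose by 0.98. Nectin3, of the adherens junction, rose by 1.22 with both. E-cadherin (Cdh1) and Epcam, named after their values were seen, were at 0.31 (interval -0.09 to 0.70, adjusted p = 0.374) and -0.12 (-0.46 to 0.22, adjusted p = 0.747) with both.

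Keratins other than Krt19 gave no call by limma in 7 tested, and with both at day 14 only 1 had an unadjusted p under 0.05. That was Krt7, a simple-epithelial keratin, at -1.05 (interval -1.84 to -0.26, adjusted p = 0.0933), with all its arrays below the controls, and Krt18 was at 0.39 (adjusted p = 0.260). In the laminin receptor list of 10 tested, Bcam, a laminin-binding receptor, fell by 0.64 and Itgb1, the shared beta-1 integrin, rose by 0.54 with both (adjusted p = 0.0435 and 0.0432). The epithelial factor Tfcp2l1, a grainyhead relative, rose by 0.89 with both (adjusted p = 0.00911).

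Around ezrin, Muc1, a mucin of the apical membrane, fell by 1.504 with both (SE 0.28, 2.84-fold lower, adjusted p = 0.00140). Moesin (Msn), the relative of ezrin that is common in endothelium and leukocytes, rose by 0.93, and podocalyxin (Podxl) by 1.08. Of the tetraspanins, Tspan8 rose in all 3 day 14 groups, by 1.03, 1.18 and 1.41 with diet, perchlorate and both. Tspan9 rose by 0.93 with perchlorate and 1.13 with both, and Tspan5 by 0.87 with both. Tspan1 fell by 0.62 with perchlorate, and with both Cd9, named after its value was seen, fell by 0.56 while Cd81 rose by 0.41. In the defence list, where Defb1 was deeply lower, Lyz2, a lysozyme of macrophages, rose by 0.68 with perchlorate and 0.89 with both, and Lcn2, an iron-binding defence protein, rose by 2.19 with both (adjusted p = 0.00568). Bpifa1, an airway secretory protein, rose by 3.98 with both (SE 1.01, adjusted p = 0.0153), though 1 control array at 10.6 lay above the lowest of the 3 treated arrays, at 9.94.

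Of the mesenchymal list, Vim, vimentin, rose by 1.56 with perchlorate and 1.87 with both (adjusted p = 0.000991 and 6.1e-05), and was at 1.12 with the diet (adjusted p = 0.0515). S100a4, Fn1 and Acta2 rose with both, by 1.30, 1.03 and 0.95. Leaving out single arrays thinned these calls: the 7 with perchlorate went to 2 without perchlorate replicate 39 or 42 or control replicate 44 and to 4 without control replicate 43 or 47. The 24 with both went to 13 without replicate 27 of that group and to 14 without replicate 30, and the 1 with the diet, Tspan8, was lost without any single array of its groups. Vim and Tspan8 with perchlorate were called whichever array was left out. With both, 12 of the 23 genes so examined were, among them Ppl, Muc1, Cldn8, Vim and Tspan8.

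**Figure D4:**
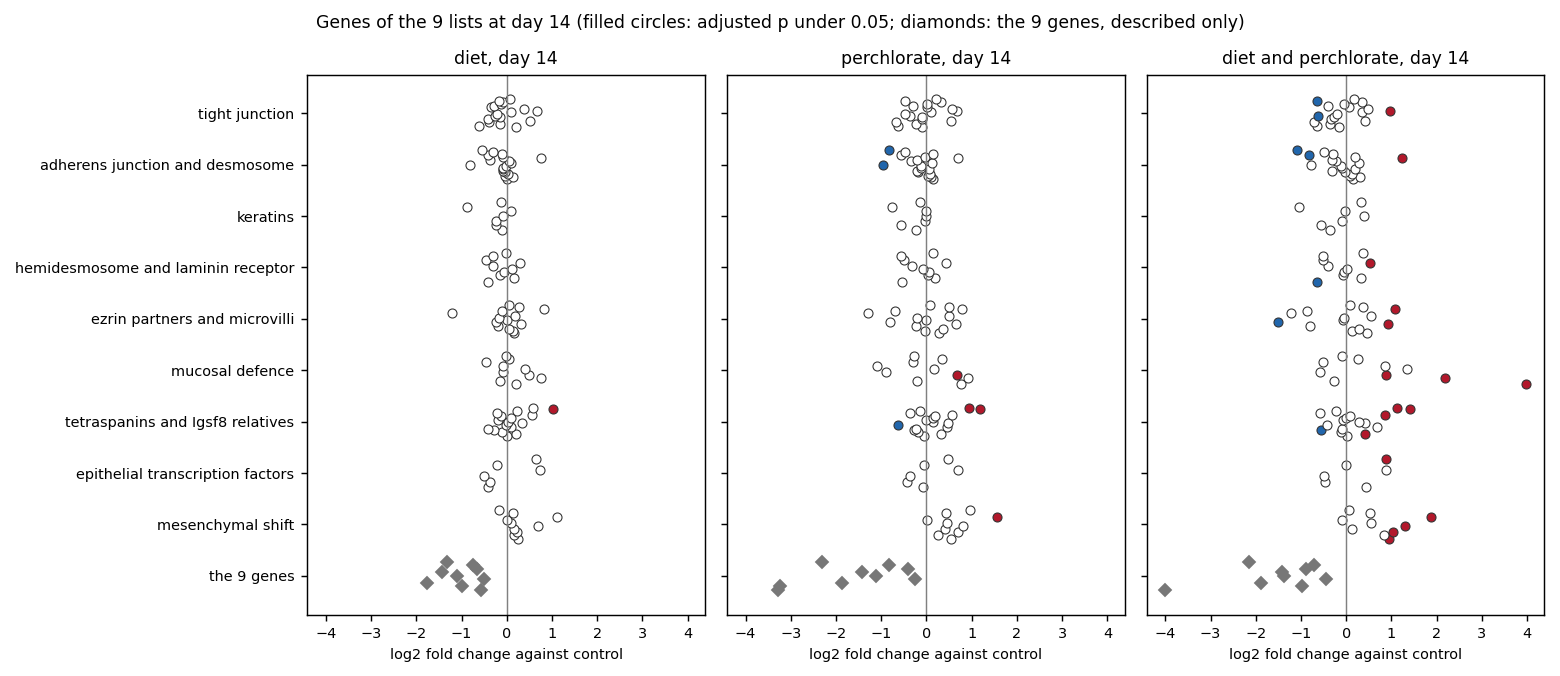
Log2 difference from control at day 14 for the genes tested in 9 lists (circles, 1 row a list) and for the 9 genes (diamonds, bottom row), in 3 panels for diet, perchlorate and both. Filled circles have an adjusted p under 0.05, red for higher and blue for lower. The diamonds lie left of 0, as the 9 genes were chosen for lower signal; 17 circles are red and 7 blue when both agents were given.

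Markers of other cell types moved at day 14 alongside the 9 genes, and their part in the differences was not tested. With both, limma called 5 of 7 endothelial, 5 of 7 fibroblast and 5 of 6 macrophage markers tested higher. With perchlorate it called 3, 4 and 3 higher, and with the diet 1 macrophage marker. At an unadjusted p under 0.05 were 7, 5 and 6 with both and likewise with perchlorate, and 3, 4 and 6 with the diet. The summed intensity of the endothelial list was 9271 to 12769 in day 14 controls, 14196 to 18051 with the diet, 15783 to 22375 with perchlorate and 20121 to 22205 with both. That of fibroblasts was 17680 to 27964 in controls, 24372 to 32689 with the diet, 28620 to 41951 with perchlorate and 31803 to 40171 with both. That of macrophages was 1027 to 1318 in controls, 2087 to 2474 with the diet, 1912.5 to 3195 with perchlorate and 2340 to 3444 with both. The sum of the follicular cell list, which includes Slc5a5, was 43783 to 44132 in controls, 44624 to 46833 with the diet, 46094 to 50517 with perchlorate and 44953 to 47771 with both. Thyroglobulin (Tg) differed from control by -0.10, 0.05 and 0.18 in these groups and was not called. Of the 8 follicular markers tested with both, Slc5a5 rose and Foxe1, a transcription factor of thyroid development, fell by 0.51 (adjusted p = 0.0223). Nkx2-1, another such factor, and Duox2, an oxidase of hormone synthesis, stood at -0.38 and -0.39 with all arrays below the controls (adjusted p = 0.138 and 0.319).

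Adipocyte and lymphocyte markers gave no call by limma at either day, in 7 and 4 tested. The adipocyte sum was 4448 to 12549 in day 14 controls, 4185 to 9206 with the diet, 1469 to 8862 with perchlorate and 2148 to 3963 with both, where the medians of the list were -0.09, -1.09 and -1.68. At day 1 those medians were -1.25, -0.41 and -2.00. The lymphocyte sum was 808 to 875 in day 14 controls and 1039 to 2532, 1161 to 1580 and 1309 to 5093 in the treated groups, all above them. At an unadjusted p under 0.05 were 5 adipocyte markers with both at day 1, 4 with both at day 14 and 1 with perchlorate at day 14, and 1 lymphocyte marker with both at day 14.

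Markers of the endocrine cells beside the follicles were lower in the same groups. Of 8 C cell markers tested, 4 fell with both, Calcb, Scg2, Scg3 and Uchl1, and 0 with perchlorate or diet, where the list's medians were -0.81 and -0.88. The summed C cell signal was 33532 to 41258 in day 14 controls, 25482 to 30010 with the diet, 18557 to 31418 with perchlorate and 17669 to 29006 with both. Of 4 parathyroid markers 2 were tested. Casr, the calcium-sensing receptor, was called lower by limma with perchlorate (by 1.56) and with both (by 1.81). Pth, the hormone gene, stood at -0.20 and -0.38 there, below all control arrays, and was not called. Over all probe sets 0.671% and 2.75% were called lower. At an unadjusted p under 0.05 were 1 of the 2 with the diet, 1 with perchlorate and 2 with both. The parathyroid sum, 20764 to 21226 in controls, did not overlap with that of any treated group, at 15856 to 17531, 15063 to 16677 and 12304 to 17880. Squamous markers were faint at day 14, at 206 to 563 over all groups, with 3 of 9 above the filter. The airway list, with 2 of 8 above the filter, ran from 199 to 1998 in controls and from 1190 to 4622 with both.

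Across the 12 arrays of day 14 the 9 genes did not form a single profile. As a description over arrays that come in 4 groups and so carry the group differences, the Pearson correlation was 0.96 between Lamb3 and Ezr, 0.93 between Lamb3 and Gprc5a and 0.91 between Gprc5a and Ezr. It was 0.84 between Defb1 and C13h1orf116, 0.17 between Tmem213 and Cldn3, and 0.03 between Tmem213 and Igsf8. Among 10634 genes, the profile most like that of Defb1 was Cep15 (0.966), followed by Gna14 (0.957) and Shmt1 (0.953), and for Tmem213 it was Pgrmc2 (0.923), Tmprss2 (0.870) and Cdkl2 (0.856). Brms1 was among the closest 3 for both Lamb3 (0.954) and Gprc5a (0.926). Rnf8 (0.959) was closest to Ezr, Tada2a (0.966) to Cldn3, Ift57 (0.940) to Krt19, Rnf32 (0.942) to C13h1orf116 and Slc16a12 (0.891) to Igsf8. Over the 12 arrays of day 1 the 27 pairs of a gene with its closest 3 ran from -0.380 (Pgrmc2 with Tmem213) to 0.899 (Txnrd2 with Krt19), with Stbd1 and Gprc5a at 0.819 and Cep15 and Defb1 at 0.444. The pairs were picked as the highest of day 14, so lower values at day 1 follow from the choice.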

How the data were processed

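Each deposited value is a linear intensity of 1 probe set, summarised by the authors with GCOS, per the submitters' processing notes; its version and settings are not given in the sources used here. Scaling between arrays was incomplete: the trimmed mean intensity (2% trimmed) ran from 320 to 488 and array medians on the log2 scale from 6.63 to 7.19. Arrays of a group correlated at 0.924 to 0.983 and none were identical. The deposited intensities were turned into log2(intensity + 16), quantile-normalised, and filtered at the 40th percentile of mean signal. Of 31099 probe sets 57 were controls and were left out; detection calls and probe-level files were not used here, so precision is limited by the number of arrays, and signal over background cannot be given. R 4.3.3 and limma 3.58.1 (lmFit with 1 mean per group over all 24 arrays, eBayes with a trend, two-sided) gave differences and Benjamini-Hochberg adjusted p-values over all 18625 probe sets, called under 0.05; the code was tested on simulated data. Names come from the platform annotation, for probe sets with 1 symbol (20826; 436 had several and 9780 none), and a gene is its brightest probe set.

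The genes, gene lists and marker lists were chosen with earlier results of these data known. Differences from control, which chose the 9 genes, are described and not tested. Named are the 9 genes; from each list, in each comparison with control, up to 4 called genes with the smallest p, or up to 2 where none was called; thyroid markers; and the 3 genes most correlated with each of the 9. Not every gene that this rule admits is named, and a few genes outside it are said to be so. Motifs were searched as exact letters in the RefSeq windows. Alternatives changed the normalization, pseudocount, filter, groups fitted, array weights and probe set rule, left out the 2 arrays that stood apart, and left out each array in turn.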

Additional observations from a re-analysis of the deposited data

Results flagged for a closer look

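Lamb3 differed from control in opposite directions under perchlorate at the 2 times. The values were 0.76 at day 1, where all 3 arrays lay above the controls, and -1.43 at day 14, where all 3 lay below. That of day 1 was not called by limma, and the day 14 mean of 5.99 lay below the filter value of 6.19. Over all probe sets 2.92% were wholly higher with perchlorate at day 1 and 13.4% wholly lower at day 14. The difference between days was -2.19 (SE 0.37), given as a description and not as a test, because perchlorate against control helped to choose the gene. Without perchlorate day 1 replicate 18, which stood apart from the other arrays, the day 1 value for Lamb3 was 0.45. It was 0.37 without that array and control day 1 replicate 22.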

How the results depend on the processing

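No paired analysis was possible because the groups share no replicate number in the labels. Over 15 alternatives or fewer per value, 1136 of 1215 values of the 9 genes kept their side of the threshold. Of the rest, 59 lost a call, 20 gained one and 0 reversed a call. Of 1686 values of other named genes these counts were 1541, 102, 43 and 0. Direction was not always kept, as a change of sign among uncalled values occurred in 30 and 5. The causes were not tested. Calls among the 9 genes: with the diet at day 1 the 2 became 0 on deposited values, without the filter and in a fit of only the groups compared; with both at day 1 the 3 became 1 on deposited values and in that fit; with the diet at day 14 the 3 became 5 in that fit and 6 with array weights. For diet against perchlorate the 1 at day 14 became 0 with pseudocount 1 or 64, without the filter and in that fit, and 2 with array weights; the 0 at day 1 became 1 with array weights or the mean of probe sets. Calls among the list genes: diet day 1, 0 became 1 on deposited values or with weights; both day 1, 0 became 3 on deposited values or without the 2 arrays that stood apart and 6 with weights; diet day 14, 1 became 0 without the filter, 5 in that fit, 10 with weights and 4 without the 2 arrays; perchlorate day 14, 7 became 3 on deposited values, 19 in that fit, 26 with weights and 20 without the 2 arrays; both day 14, 24 became 40, 43 and 37 in the last 3. Leaving out each array in turn, calls among the 9 genes ran from 0 to 1 (diet day 1), 1 to 3 (both day 1), 0 to 4 (diet day 14), 5 to 6 (perchlorate day 14), 5 to 6 (both day 14), 0 to 1 and 0 to 3 (diet against perchlorate, day 14 and day 1) and stayed at 0 for perchlorate day 1 and the controls; those of list genes ran from 2 to 6 (perchlorate day 14) and 13 to 21 (both day 14) and were 0 in the others.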
